A study of Drosophila melanogaster with 22 samples.

Results

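The lymph gland is the blood-forming organ of the fly larva, and gene expression in normal lymph glands was compared here between 120 h and 96 h after egg laying. The comparison rested on 4 of the 22 samples of the study, chosen by their labels as the normal lymph gland libraries sequenced by nanopore. These were 3 libraries at 96 h and 1 library at 120 h, all from uninfested Drosophila melanogaster larvae of the wild-type Oregon R (OreR) strain. The 96 h libraries were made with the cDNA kit SQK-PCB109, and the 120 h library with SQK-PCS109. Stage, kit and library therefore cannot be told apart, and the 120 h values have no replicate. Lymph glands were dissected apart from the circulating hemocytes, and the number of larvae behind each lymph gland library is not given plainly in the labels. The study also sampled infested lymph glands and the blood of normal and infested larvae, and 4 normal blood libraries (2 at each age) are used below as a separate measure of larval age.

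The gland holds a medullary zone of undifferentiated prohemocytes, a small niche called the posterior signaling center, and a cortical zone of mature hemocytes. Mature hemocytes are plasmatocytes, which are phagocytic, crystal cells, which carry the prophenoloxidases of melanization, and lamellocytes, which appear mainly after wasp attack. During the third larval instar more prohemocytes mature, and the gland breaks up around pupariation. It lies along the heart, close to the ring gland, so a dissection can carry along cells of those organs. In whole glands, fewer cells of a type and less RNA per cell cannot be told apart.

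The 96 h libraries held 1228876, 1304281 and 1248609 gene counts in replicates 1, 2 and 3, and the 120 h library held 6223590. Between 8158 and 8250 genes had a count at 96 h and 9038 at 120 h. With no read, a gene could still stand at up to 2.30 to 2.44 CPM (a gene's counts scaled to a fixed total per library) at 96 h and up to 0.482 CPM at 120 h, taking 3 counts as the limit. Replicates 1 and 2 were closest to each other (Pearson r = 0.982 of log2 CPM over 1090 genes, a description across genes), and replicate 3 stood apart from both (r = 0.937 and 0.956). The 120 h library had r = 0.902, 0.922 and 0.955 with replicates 1, 2 and 3. It lay nearest to replicate 3 for 596 of the 1090 genes (54.7%). The defining hemocyte genes were present in all 4 libraries: the GATA factor srp stood at 26.9, 26.1, 31.2 and 23.1 CPM in replicates 1 to 3 and at 120 h, and the plasmatocyte clotting gene Hml at 452, 391.8, 366 and 304 CPM.

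A gene counted as higher when its 120 h CPM was at least 100 and above all 3 libraries at 96 h, and as lower when it was below all 3 and their mean was at least 100. Of 1090 genes with at least 100 CPM on one side, 258 (23.7%) were higher, 473 (43.4%) were lower, and 731 (67.1%) were outside the range in either direction. Most lay close to it: 146 of the 258 and 258 of the 473 were less than 1.2-fold beyond the nearest library. The median log2 ratio, taken as log2 of (CPM + 5) at 120 h over (the 96 h mean + 5), was -0.15. Which direction prevailed depended on the scaling. TMM scaling aims to set the bulk of genes level, here of the 10220 genes with a count in the 4 libraries and not of the 1090. With TMM, 604 of the 1090 genes (55.4%) were higher and 159 (14.6%) lower, and their median ratio was 0.23. Counting genes that pass the minimum only after rescaling, 683 were higher. The 120 h library gave 45.0% of its counts to cytosolic ribosomal protein genes against 29.8, 35.6 and 36.6% at 96 h. The part of this share in the shift was not tested on its own. Under each of 5 scalings (total counts, TMM, median of ratios, total counts without mitochondrial and ribosomal protein genes, and a centring on transcript length) 254 genes were higher and 148 were lower, 23.3 and 13.6% of the 1090. This was not an equal check of both directions. TMM, median of ratios and the reduced total all raised the 120 h library relative to 96 h. All 258 higher genes kept their call under these, and only length centring removed any. The 473 lower genes were cut to 159, 164 and 220 under these, and to 340 by length centring. Named genes below that reached 100 CPM were called alike under all 5 unless a sentence says otherwise.

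**Figure D1:**
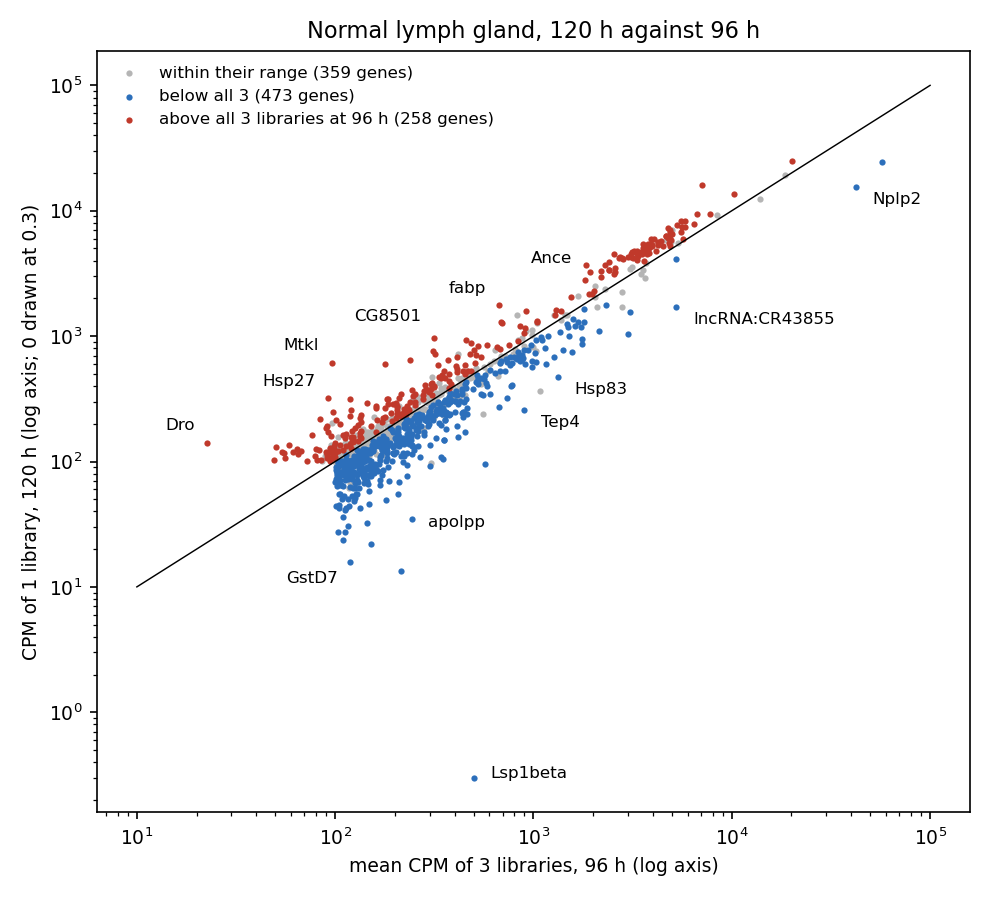
Level of each of the 1090 genes at 96 h (mean CPM of 3 libraries, horizontal log axis) and at 120 h (CPM of 1 library, vertical log axis). Red points lay above all 3 libraries at 96 h (258 genes), blue points below all 3 (473) and grey points within their range, and the line marks equal CPM; Lsp1beta, listed at 0, is drawn at 0.3.

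At the edge of the rule, the least distant higher gene was CG13551, with 783.3 CPM at 120 h against a highest 96 h value of 782.8. The least distant lower gene was ND-B14.5A, a complex I subunit, with 183.98 CPM at 120 h against a lowest value of 184.01. Just inside the range were CG11686, with 111.0 CPM against a highest value of 111.2, and CG3760, with 198.60 against a lowest value of 198.58. Of these 4, CG13551 was higher under all 5 scalings, while ND-B14.5A, CG11686 and CG3760 were above the range with TMM.

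Only 11 genes (1.01%) were at least 2-fold above the nearest 96 h library and 29 (2.66%) at least 2-fold below it, the fold being taken on CPM + 5. Replicate 3 decided part of these counts, which were 33 and 83 without it, and 10 and 13 genes were 2-fold outside under all 5 scalings. The gene farthest above was Mtkl (FBgn0262881, 2R:14638538-14638935 in the BDGP6.54 annotation), the Metchnikowin-like gene, with 85.4, 75.9 and 127 CPM at 96 h and 611 CPM at 120 h. That is 6.37 times the 96 h mean. Drosocin, Dro (FBgn0010388, 2R:14745961-14746714), an antimicrobial peptide gene, followed with 14.6, 23.0 and 30.4 CPM against 141 CPM. For both genes the lowest distance to a 96 h library was over 4-fold (4.83 and 4.63).

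The fatty acid binding protein gene fabp had 707, 656 and 642 CPM at 96 h and 1767 CPM at 120 h. The small heat shock protein gene Hsp27 had 73.2, 69.0 and 134 CPM against 318 CPM. The C-type lectin gene lectin-28C had 109, 92.0 and 92.1 CPM against 246 CPM. In each of these the 120 h value stood clear of a narrow or moderately wide 96 h range, by 2.499-, 2.38- and 2.26-fold from the nearest library. Ornithine aminotransferase, Oat, went from 116, 81.3 and 56.1 CPM to 219 CPM, and the signal peptide peptidase-like gene SppL from 62.7, 56.7 and 72.1 to 125 CPM. The stress regulator cnc, the fly counterpart of Nrf2, had 86.3, 92.8 and 98.5 CPM against 170 CPM. The G protein subunit gene Ggamma30A had 87.1, 69.8 and 73.7 CPM against 163 CPM. The remaining named genes of this end, Mec2, Had2 and unc-119, were between 1.68 and 1.96 times the nearest library. Among genes known by a number, CG8501 had 262, 357 and 323 CPM against 972, CG6770 162, 149 and 223 against 603, and CG6891 234, 257 and 224 against 649. CG15343 had 129, 96.6 and 131 CPM at 96 h and 317 CPM at 120 h. Reads of fabp, Hsp27, lectin-28C, Ggamma30A, cnc, unc-119, CG6891 and CG15343 may be shared with genes that overlap them in the annotation.

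**Figure D2:**
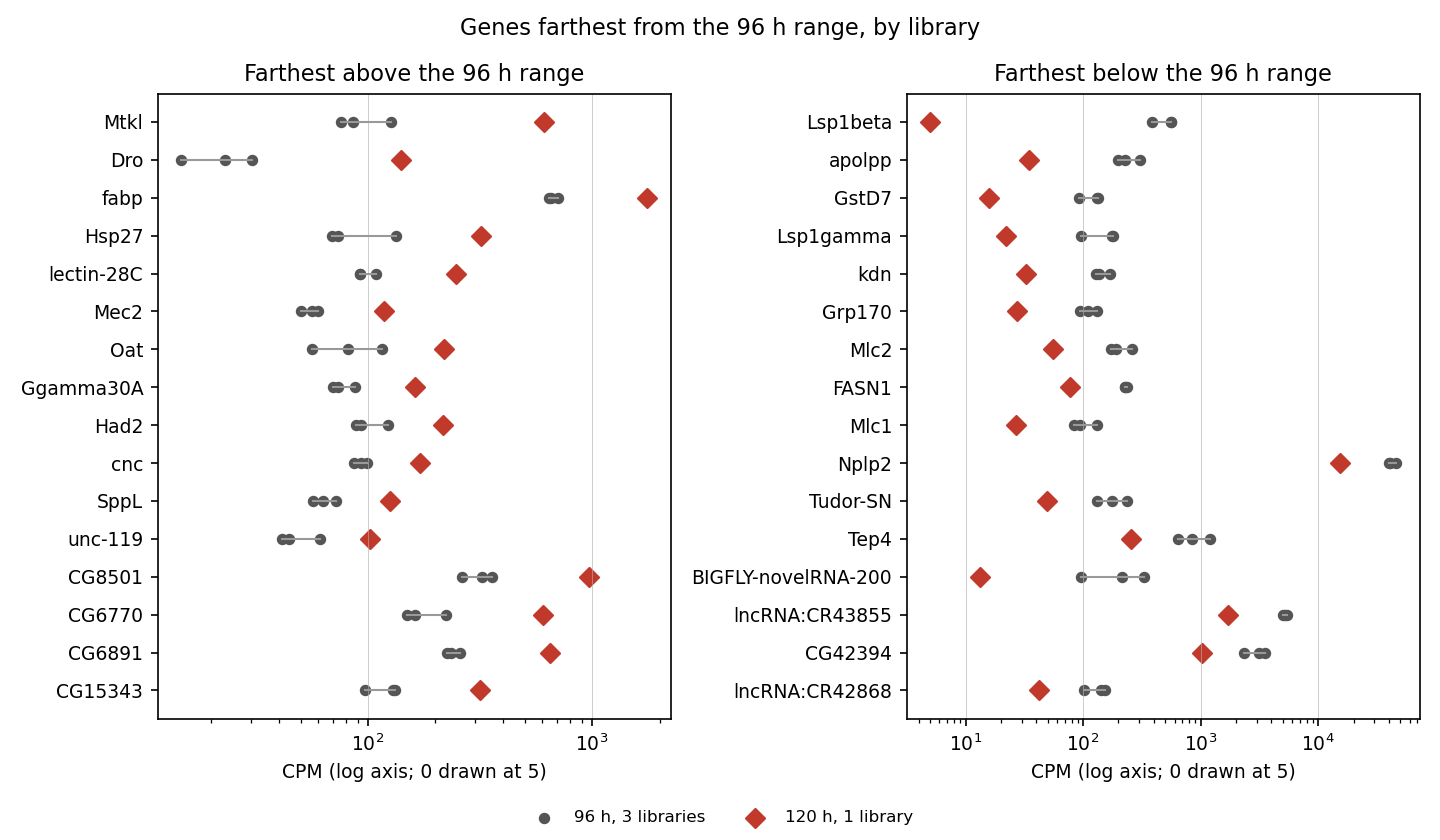
CPM by library (horizontal log axes) of the 16 named genes farthest above and the 16 farthest below the 96 h range, numbered and non-coding genes last in each panel. Grey points are the 3 libraries at 96 h joined by a line over their range, and red diamonds are the single 120 h library; Lsp1beta, listed at 0, is drawn at 5.

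At the other end stood products of the fat body, the larval storage and secretory organ. Lsp1beta, a larval serum protein, had 558, 388 and 555 CPM at 96 h and was listed at 0 at 120 h. It was 1 of 6 genes listed at 0 at 120 h with at least 20 counts in every 96 h library, and 58 genes were listed at 0 in one 96 h library with at least 20 counts in another, so a 0 may not mean absence and no fold is given. Lsp1beta was also listed at 0 in 1 of the 2 normal blood libraries at 96 h, while the other held 609 counts, and near-identical serum protein genes may exchange reads. The lipid carrier precursor gene apolpp had 199, 227 and 303 CPM against 34.9 CPM, and Lsp1gamma 181, 178 and 96.1 CPM against 22.2 CPM. FASN1, fatty acid synthase, had 227, 238 and 227 CPM against 77.3 CPM.

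The glutathione S-transferase gene GstD7 had 133, 130 and 92.1 CPM at 96 h and 15.7 CPM at 120 h, 7.53-fold lower than the mean. Citrate synthase, kdn, had 128, 169 and 135 CPM against 32.5 CPM. The ER chaperone gene Grp170 had 132, 111 and 93.7 CPM against 27.6 CPM, and Tudor-SN, which encodes a staphylococcal nuclease domain protein, 235, 176 and 131 CPM against 49.2 CPM. None of these ranges came near the 120 h value. The myosin light chain genes Mlc2 (260, 190 and 174 CPM against 55.4) and Mlc1 (132, 83.6 and 93.7 CPM against 27.2) were lower too, Mlc1 under 2 of the 5 scalings only (total counts and centring on length).

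Among genes known by a number or a non-coding name, lncRNA:CR43855 had 5478, 5235 and 5057 CPM at 96 h and 1695 CPM at 120 h. The protein-coding gene CG42394 had 3515, 3115 and 2339 CPM against 1032 CPM. The assembly gene BIGFLY-novelRNA-200, which has no annotated counterpart here, had 215, 333 and 95.3 CPM against 13.3 CPM. lncRNA:CR42868 had 143, 153 and 102 CPM against 42.4 CPM. The long RNAs CR43855 and CR42868 overlap Sema1a and another long RNA on the opposite strand, and the strand used for counting is not given in the sources used here.

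Members of the hemocyte classes differed in direction. Of 8 prohemocyte markers 3 reached 100 CPM, and they split: Ance, a peptidyl dipeptidase, had 1600, 1780 and 2072 CPM at 96 h and 2814 CPM at 120 h, while Tep4, a medullary zone gene of the thioester protein family, had 1202, 848 and 647 CPM against 256 CPM. The cytokine receptor gene et had 180, 123 and 111 CPM against 76.2 CPM. In Tep4 and et replicate 3, the library most like the 120 h one, was also the lowest at 96 h. The receptor gene dome, at 10.6, 9.97 and 21.6 CPM against 14.8 CPM, stayed inside its range. The summed level of the list was 3050, 2826 and 2916 CPM against 3231 CPM. Most of that sum came from Ance alone, with 1600, 1780 and 2072 CPM at 96 h and 2814 CPM at 120 h.

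None of the 8 posterior signaling center markers reached 100 CPM. Antp, the homeotic gene that marks the niche, had 15.5, 13.8 and 19.2 CPM at 96 h and 13.0 CPM at 120 h. Collier, kn, had 22.0, 17.6 and 9.61 CPM against 3.37 CPM (21 counts), below all 3 libraries but too low for a call. The summed level of the list was 77.3, 92.0 and 102 CPM against 60.9 CPM.

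Of 17 plasmatocyte markers 16 had reads and 12 reached 100 CPM. In CPM 3 of these (25%, near the 23.7% of all genes) were higher and 7 (58.3%, beside 43.4%) lower. Under all 5 scalings 3 were higher and 5 lower (25 and 41.7%, beside 23.3 and 13.6% of all genes). With TMM 5 were higher and 5 lower. The median log2 ratio was -0.43 beside -0.15 over all 1090 genes, and -0.04 with TMM. The higher ones were all surface or secreted Nimrod proteins: the phagocytic receptor NimC1 (145, 112 and 97.7 CPM against 229), its relative eater (188, 139 and 209 against 268) and NimB4 (303, 235 and 192 against 369). All 3 were above every 96 h library. Nplp2, the most abundant marker, had 46355, 39702 and 40773 CPM at 96 h and 15469 CPM at 120 h. The peroxidasin gene Pxn had 461, 284 and 274 CPM against 194 CPM, and the matrix protein gene Ppn, papilin, 299, 232 and 163 CPM against 93.5 CPM. Hml (452, 391.8 and 366 CPM against 304) was below its range in CPM but lost that place with TMM, where its log2 ratio was -0.01.

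Of 7 crystal cell markers only PPO1 and PPO2 reached 100 CPM, and both stayed within range in CPM. PPO2 was above it under 4 of the 5 scalings and PPO1 under 3, so their place depended on the scaling. Markers too low for a call went both ways. In CPM peb (15.5, 12.3 and 21.6 against 25.1) was above its range. Mlf (26.9, 27.6 and 29.6 against 11.6) and sima (22.0, 24.5 and 31.2 against 17.4) were below theirs. PPO1 had 845, 770 and 1339 CPM at 96 h and 1120 CPM at 120 h, and PPO2 1594, 1237 and 2203 CPM against 2074 CPM. The crystal cell regulator lz had 6.51, 3.83 and 12.01 CPM against 5.95 CPM. For PPO1, PPO2 and lz, in CPM, replicate 3 was the highest of the 96 h libraries and the 120 h value lay between it and the lowest. Of 8 lamellocyte markers 7 stayed below 100 CPM, too low for a call. Of these, atilla had 0, 6.13 and 0 CPM against 11.1 CPM (69 counts), above all 3 libraries. PPO3, near the counting limit, had 1.63, 0 and 0 CPM against 0.803 CPM. Mmp1 (at most 3.26 CPM at 96 h against 9.96) and betaTub60D (at most 11.2 against 12.4) were above their ranges too. Below theirs were msn (at least 18.7 against 14.9) and Tret1-1 (at least 8.01, listed at 0 at 120 h), while ItgaPS4 had 1 count at 120 h. The filamin gene cher, also used by other cells, was the 1 lamellocyte marker at 100 CPM, with 85.4, 97.4 and 144 CPM against 162 CPM.

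Antimicrobial peptide genes, the effectors of the Toll and Imd immune pathways, summed to a higher level in this library. Of 14 listed 12 had reads in the 4 libraries, but Dro alone reached 100 CPM. Drs, drosomycin, had 3.26, 0.767 and 1.60 CPM at 96 h and 39.0 CPM at 120 h (243 counts). AttB had no read in any of the 3 libraries at 96 h and 103 counts, 16.5 CPM, at 120 h. AttA (7.55 CPM) and AttD (4.02 CPM) had likewise no read at 96 h, and DptB at 0.643 CPM was the lone member below its 96 h mean. The summed level of the list was 18.7, 24.5 and 35.2 CPM at 96 h and 217 CPM at 120 h. In the 3 infested lymph gland libraries at 96 h, Dro stood at 110, 86.9 and 62.6 CPM, above normal glands of that age.

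Some other immune genes were lower, though the Nimrod genes NimC1, eater and NimB4 (above) were not. The Nimrod gene NimB5 had 519, 398 and 291 CPM against 250 CPM, and may share reads with He on the opposite strand. It was lower in CPM but within its range with TMM and median of ratios. Of 6 phagocytosis and scavenger receptor genes at 100 CPM 3 were higher and 1 lower in CPM. IM18, an immune-induced peptide, had 1362, 1621 and 1253 CPM against 768 CPM and may share reads with the overlapping gene CG10332. Spaetzle, spz, the ligand of Toll, had 295, 287 and 168 CPM against 123 CPM, and Stat92E, the transcription factor of the JAK-STAT pathway, 129, 149 and 114 CPM against 68.4 CPM. The thioester protein gene Tep1 had 946, 704 and 356 CPM against 271 CPM. For spz and Tep1 replicate 3 lay well below the other 2 libraries and closer to the 120 h value.

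Nearly all cytosolic ribosomal protein genes were higher. Of 86 listed 84 had reads, 81 reached 100 CPM, and 75 of these (92.6%, beside 23.7% of all genes) were higher and none lower. The other 6 (RpL39, RpLP0, RpLP1, RpS15Ab, RpS2 and RpS21) were within range. Their median log2 ratio was 0.42, 0.79 with TMM and 0.46 after centring on length. RpS9 had 2902, 3728 and 4015 CPM at 96 h and 5478 CPM at 120 h, RpL7 3531, 3855 and 3998 against 5477, and RpS13 4684, 4550 and 4695 against 6271. Replicate 1 was the lowest 96 h library for the list, by a median of 0.23 on the log2 scale below the 96 h mean. Of genes with transcripts of 600 to 1000 bases, 36 of 39 ribosomal protein genes (92.3%) and 49 of 232 others (21.1%) were higher. Without the ribosomal protein genes, 183 of 1009 genes (18.1%) were higher and 473 (46.9%) lower.

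Nuclear genes of oxidative phosphorylation were slightly lower in CPM: 42 of 63 (66.7%, beside 43.4% of all genes) were lower and 2 higher, with a median log2 ratio of -0.18. That direction flipped with TMM, to 0.20 with 42 genes higher and 3 lower, close to the 0.23 of all 1090 genes. Members lower under all 5 scalings included ATPsynbeta, the catalytic beta subunit of ATP synthase, with 1859, 1967 and 1426 CPM against 944 CPM. The succinate dehydrogenase subunit SdhA had 111, 87.4 and 116 CPM against 42.3 CPM, but was not called under every scaling. COX6B, a cytochrome c oxidase subunit that overlaps CG18809 in the annotation, went the other way, with 186, 154 and 206 CPM against 318 CPM. Genes encoded by the mitochondrion itself made up 2.82, 2.36 and 6.20% of counts at 96 h and 4.09% at 120 h, and 14 of 17 were within the 96 h range. Of these 17, mt:ND5 (1579, 1789 and 3067 CPM against 1107) and mt:ND4 (1614, 902 and 1277 against 677) were lower and mt:CoII (2967, 1895 and 2773 against 3109) was higher.

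Most genes of protein folding and secretion in the endoplasmic reticulum were lower. Of 12 members at 100 CPM 11 (91.7%, beside 43.4% of all genes) were lower in CPM, 6 of them under all 5 scalings, and 2 were higher with TMM. The median log2 ratio was -0.58 in CPM, -0.19 with TMM and -0.24 after centring on length, where 8 were lower. Gp93, the ER form of Hsp90, had 444, 350 and 225 CPM at 96 h and 109 CPM at 120 h, and Hsc70-3, the fly BiP, 866, 720 and 624 CPM against 320 CPM. Gp93, Hsp83, Tudor-SN, et, Pxn, spz, ATPsynbeta, SdhA, cathD, sls, apolpp and PPO1 have annotated genes on the opposite strand, with which reads may be shared. Calnexin, Cnx99A, had 173, 96.6 and 84.1 CPM against 44.2 CPM. Cytosolic chaperones were also below their ranges: Hsp83, the cytosolic Hsp90, had 1623, 1346 and 1020 CPM against 471 CPM, and Hsc70-4 1807, 1786 and 1120 CPM against 742 CPM. In each of these genes replicate 3 was the lowest 96 h library. Hsp27 (above) was the 1 of 5 heat shock and chaperone genes at 100 CPM that was higher.

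In glycolysis 4 of 8 genes were lower in CPM, near the 43.4% of all genes, and with TMM 3 were lower and 2 higher; pyruvate kinase, PyK, had 180, 131 and 122 CPM against 69.4 CPM. None of the 26 proteasome genes at 100 CPM was outside the range under all 5 scalings, though 11 (42.3%, beside 43.4% of all genes) were lower in CPM and 18 were higher with TMM, as were 55.4% of all genes. Of 7 lysosomal genes 3 (42.9%, beside 23.7% of all genes) were higher, and CtsL1 was lower in CPM. Their median log2 ratio was -0.14, beside -0.15 over all 1090 genes. The higher ones were the cathepsins CtsB (589, 461 and 382 CPM against 716) and cathD (421, 330 and 289 against 486) and the sterol carrier Npc2a (330, 260 and 247 against 367). In the redox list 6 of 13 genes were higher and 6 lower (46.2% each, beside 23.7 and 43.4% of all genes). Under all 5 scalings 6 were higher and 1 lower (46.2 and 7.69%, beside 23.3 and 13.6% of all genes). On either side stood GstO3 (426, 393 and 419 CPM against 544) and Trx2, a thioredoxin (986, 928 and 806 CPM against 599). Of 4 cell cycle genes at 100 CPM, stg, the Cdc25 phosphatase that starts mitosis, had 89.5, 86.6 and 183 CPM against 257 CPM, while PCNA and RnrS were 0.16 and 0.24 lower on the log2 scale and 0.22 and 0.13 higher with TMM. The secreted matrix protein gene SPARC had 916, 882 and 772 CPM against 1215 CPM, the 1 of 8 extracellular matrix genes that was higher in CPM. The other 7 (87.5%, beside 43.4% of all genes) were lower in CPM, and 4 (50%, beside 13.6%) under all 5 scalings. With TMM 3 were higher and 4 lower, with a median log2 ratio of -0.12. Of 11 adhesion and cytoskeleton genes 5 were higher and 5 lower (45.5% each, beside 23.7 and 43.4% of all genes). Under all 5 scalings 5 were higher and 1 lower (45.5 and 9.09%, beside 23.3 and 13.6% of all genes). The thymosin gene cib had 568, 518 and 452 CPM against 712 CPM. The gene zip, for the heavy chain of non-muscle myosin, had 208, 146 and 114.5 CPM against 81.0 CPM.

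**Figure D3:**
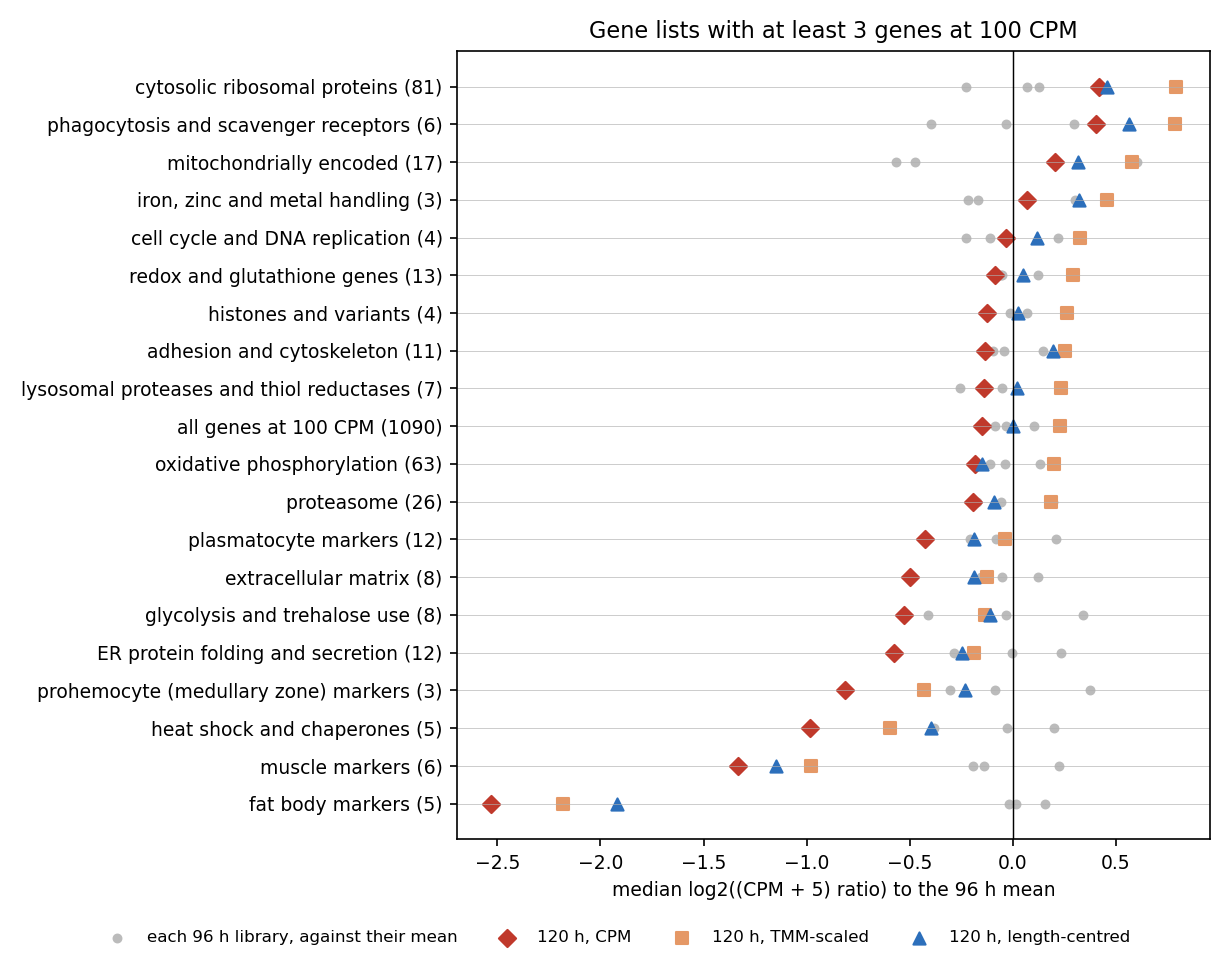
Median log2((CPM + 5) ratio) to the 96 h mean for each gene list with at least 3 genes at 100 CPM (number in brackets), for the 120 h library in CPM (red diamonds), with TMM scaling (orange squares) and after centring on length (blue triangles); grey points are the 96 h libraries against their own mean. Fat body and muscle markers lie far left under all 3 scalings, cytosolic ribosomal proteins lie right of all 96 h libraries, and lists near the median of all genes change sign between scalings.

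Markers of fat body, muscle, ring gland and heart summed to a lower level in the 120 h library, those of neurons and glia did not, and their part in the results was not tested. The 12 fat body markers summed to 1700, 1448 and 1454 CPM at 96 h and 286 CPM at 120 h, and the 19 muscle markers to 1878, 1586 and 1565 CPM against 706 CPM. The fat body sum includes Lsp1beta (558, 388 and 555 CPM at 96 h) and Lsp1alpha (87.9, 58.3 and 26.4 CPM). Both were listed at 0 at 120 h, which may not mean absence, and Lsp1beta is 1 of the 5 fat body markers at 100 CPM. All 5 fat body and all 6 muscle markers at 100 CPM were lower, with medians of -2.53 and -1.33 on the log2 scale (-2.18 and -0.98 with TMM); under all 5 scalings these were 5 fat body and 4 muscle markers. Titin, sls, had 184, 170 and 152 CPM against 71.0 CPM, and the LIM protein gene Mlp60A 98.5, 94.3 and 148 CPM against 42.6 CPM. Ring gland markers, of the organ that makes ecdysone, summed to 246, 215 and 229 CPM against 75.8 CPM. Among them the ecdysone synthesis gene spok had 68.4, 62.1 and 73.7 CPM against 13.2 CPM, and the hormone gene Akh 55.3, 44.5 and 55.3 CPM against 10.3 CPM, while sro, with 22.8, 19.2 and 14.4 CPM against 33.6 CPM, was above its range. Heart and pericardial markers summed to 219, 187 and 179 CPM against 58.3 CPM, with Hand at 97.7, 91.2 and 88.1 CPM against 29.4 CPM. Neuron and glia markers summed to 116, 102 and 151 CPM against 152 CPM, and Syx1A, a syntaxin and their 1 member at 100 CPM, had 65.9, 59.0 and 91.3 CPM against 101.4 CPM. Salivary gland markers, at most 0.767 CPM in sum in any of the 4 libraries, were near 0. Cuticle protein genes summed to 49.6, 33.7 and 365 CPM against 121 CPM, highest in replicate 3.

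Transcript length, taken for each gene as that of its longest listed transcript, moved with the ratios. Higher genes had a median transcript length of 1097.5 bases and lower genes 1701 bases, against 1354.5 over all 1090 genes. Of 284 genes with 1500 to 2500 bases 57.4% were lower, with a median log2 ratio of -0.41, and of 114 genes with 2500 to 4000 bases 68.4%, with a median of -0.49. Below 1500 bases the class medians lay between -0.04 and -0.02, and for the 90 genes over 4000 bases the median was -0.06. Genes whose longest listed transcript was over 2000 bases drew 17.7, 16.6 and 16.3% of counts at 96 h and 13.1% at 120 h. After centring each library on length, 254 of the 258 higher genes and 340 of the 473 lower genes kept their call. The 96 h libraries, made with the same kit, also differed from one another by length. Against their own mean, replicates 1, 2 and 3 had medians of 0.18, -0.02 and -0.23 at 1500 to 2500 bases. The medians were 0.12, -0.03 and -0.12 at 2500 to 4000 bases, and -0.15, -0.10 and 0.20 over 4000 bases. The kits differ between the ages, and the part of the kit in the trend at 120 h was not tested.

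**Figure D4:**
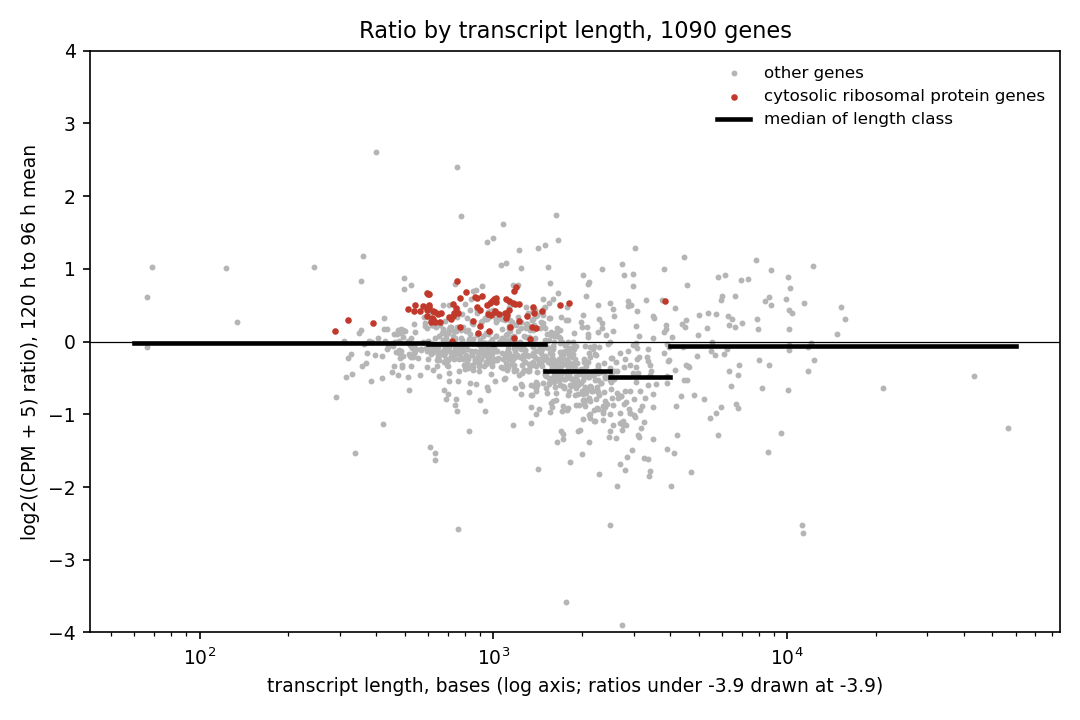
Log2((CPM + 5) ratio) of 120 h to the 96 h mean against transcript length (log axis) for the 1090 genes, with cytosolic ribosomal protein genes in red and the median of each length class as a black bar. Classes between 1500 and 4000 bases lie below the others, at medians of -0.41 and -0.49.

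Blood of normal larvae gave a contrast over the same interval of larval age, between libraries that are not in the gland comparison and were made with 1 kit. The fit also held the lymph gland libraries at 96 h, which entered the scaling, the filter and the estimate of spread but not the contrast. There 156 of 7076 genes (2.2%) rose and 143 (2.02%) fell from 96 h to 120 h (edgeR, adjusted p under 0.05, 2 libraries against 2). Among the 1090 genes 39 (3.58%) rose and 53 (4.86%) fell. Of the 258 genes that were higher in the gland 32 (12.4%) rose in blood and 1 fell, and of the 473 that were lower 48 (10.1%) fell and 3 (0.634%) rose. Of the 359 genes within the gland's range 4 rose and 4 fell. In a fit of the 4 blood libraries alone, which holds no gland library, the 32 and 48 were 64 and 109. That fit called 711 genes against 299 in the main fit. The larger overlaps therefore do not by themselves show a closer match. Leaving out any 1 of the 4 blood libraries reduced the 32 to between 16 and 19 and the 48 to between 16 and 20. The labels do not say whether the libraries of a group came from separate batches of larvae, so p-values measure the spread between these samples, which may be technical.

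Of the 11 genes 2-fold above the range in the gland 6 also rose in blood: Mtkl, CG6770, CG6891, fabp, Hsp27 and lectin-28C. The largest of these was Hsp27, from 86.8 ± 6.89 to 698 ± 22.7 TMM-scaled CPM (SD, n = 2 at each age), which is 3.0 ± 0.39 (SE) on the log2 scale (adjusted p by edgeR = 0.000271). The gene fabp rose from 458 ± 22.2 to 2771 ± 214 (adjusted p by edgeR = 1.68e-05) and lectin-28C from 158 ± 0.613 to 547 ± 15.5 (adjusted p by edgeR = 3.35e-05). SppL and Oat rose as well, by 2.94 ± 0.26 and 1.65 ± 0.24 on the log2 scale (adjusted p by edgeR = 1.66e-05 and 0.000774). The rise of Mtkl, 1.92 ± 0.43 (adjusted p by edgeR = 0.0207), held in 1 of the 4 fits without a library. Dro, at a log2 fold change of 3.83, and CG8501, at 0.38, did not pass the test (adjusted p by edgeR = 0.290 and 0.723).

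The 29 genes 2-fold below the range included 9 that fell in blood and 1 that rose. GstD7 fell from 106 ± 7.33 to 6.71 ± 3.12 (adjusted p by edgeR = 3.35e-05) and CG42394 from 2338 ± 137 to 319 ± 35.1 (adjusted p by edgeR = 7.94e-06), both also without any 1 library. Nplp2 fell by 1.99 ± 0.40 on the log2 scale (adjusted p by edgeR = 0.00885), citrate synthase, kdn, fell by 1.80 ± 0.38 (adjusted p by edgeR = 0.0138) and sls fell by 2.52 ± 0.57 (adjusted p by edgeR = 0.0207). The calls of Nplp2 and kdn held in 1 of the 4 fits without a library, and that of sls in none. Lsp1gamma went the other way, from 63.0 ± 9.08 to 415 ± 46.5 (adjusted p by edgeR = 0.00683), and held in 2. Tep4, Hsp83, Gp93, Grp170 and apolpp did not pass in blood (adjusted p by edgeR = 0.126, 0.643, 0.969, 0.355 and 0.979).

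Among list members, the papilin gene Ppn fell by 2.03 ± 0.25 (adjusted p by edgeR = 0.000228), Trx2 fell by 1.57 ± 0.20 (adjusted p by edgeR = 0.000270) and the metallothionein gene MtnA fell by 2.45 ± 0.29 (adjusted p by edgeR = 0.000134). NimB5 fell by 1.18 ± 0.21 (adjusted p by edgeR = 0.00351), a call that held in 3 of the 4 fits without a library. MtnA in the gland had 159, 173 and 253 CPM at 96 h and 116 CPM at 120 h, below its range in CPM but not under all 5 scalings. GstO3, cib and the cystathionine gamma-lyase gene Cth rose, by 1.33 ± 0.21, 1.80 ± 0.17 and 1.32 ± 0.20 (adjusted p by edgeR = 0.00177, 1.84e-05 and 0.00101). Ance rose by 1.19 ± 0.28 (adjusted p by edgeR = 0.0242) and CtsB by 0.87 ± 0.20 (adjusted p by edgeR = 0.0234), both lost when any 1 library was left out. No gene of the 81 cytosolic ribosomal protein genes passed in blood; for RpL7 the log2 fold change was 0.19 (adjusted p by edgeR = 0.820). Of the 12 endoplasmic reticulum genes 1 fell in blood, and Hsc70-3 stood at 0.45 on the log2 scale (adjusted p by edgeR = 0.364). Of the 30 named genes past the test in blood 16 passed in all 4 fits that leave out 1 library, and all 30 kept their sign.

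**Figure D5:**
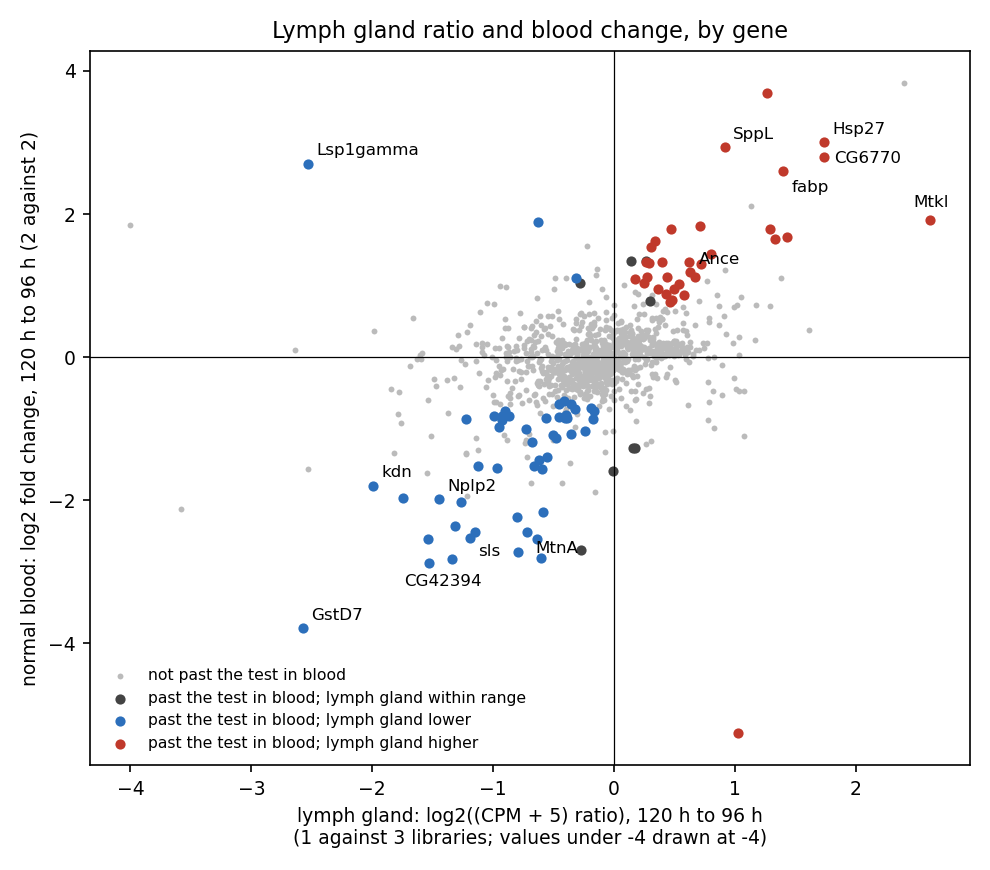
Log2((CPM + 5) ratio) in lymph gland (120 h to 96 h, 1 against 3 libraries, horizontal axis) and log2 fold change in normal blood (2 against 2, vertical axis) for the 1090 genes. Coloured points passed the edgeR test in blood: 32 of the higher genes (red) lie above 0 and 48 of the lower genes (blue) lie below it, with Lsp1gamma among the exceptions.

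Shares of transcripts within a gene were read from the authors' estimated transcript counts. Of 564 genes with at least 2 listed transcripts and at least 100 reads in each library, 29 (5.14%) had a transcript whose share lay at least 20 percentage points outside the 96 h range. In 23 of them a transcript gained, and in 18 of the 23 that transcript had no read in any of the 3 libraries at 96 h. For 10 of these its share at 120 h lay between 40 and 60%. The largest were mod, in which mod-RC had 0% at 96 h and 49.8% of 1284 reads at 120 h, and the proteasome subunit gene Prosbeta7, in which Prosbeta7-RB had 0% and 49.5% of 1200 reads. RpL13-RB (49.4%), RpL27A-RA (49.2%), RpLP0-RA (48.7%), Nurf-38-RB (48.4%), eIF3h-RB (46.8%) and RpL21-RA (46.0%) were each at 0% in the 3 libraries at 96 h. In 6 of the 23 genes the gaining transcript had no read in any of the other 16 nanopore libraries. In 27 of the 29 genes 1 transcript lay above its 96 h range and another below it by any amount, and in 19 of these the one farthest above was the shorter of the pair. How reads that fit several transcripts were divided is not given in the sources used here, and its part in these shares was not tested.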

How the data were processed

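Nanopore cDNA libraries of lymph glands and blood were deposited by the authors as whole-number read counts per gene and as an estimated count for each transcript (expected counts, which can be fractional). Per the submitters' processing notes, the tools were minimap2 2.17-r941, RSEM 1.3.1, StringTie 2.1.3, STAR 2.5.3a and FastQC 0.11.8, with no role given. The counting tool, its strand setting and the genome build were not given in the sources used here. Lines for ambiguous reads (0.646 to 0.874% of gene counts in the 4 lymph gland libraries) and for reads outside genes (0.507 to 0.741%) were left out. Symbols were matched in the Ensembl BDGP6.54 annotation for 13415 gene identifiers, for 73 more through transcripts, and not for 11; 354 were assembly genes. Transcript lengths came from the authors' Illumina transcript table, and each gene took the length of its longest listed transcript. The 3 libraries at 96 h differed from one another beyond counting noise, so none was a repeat deposit.

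CPM is a count scaled to a fixed total of gene counts per library. The 120 h library was compared with 3 libraries without a test, and floors cover counting error only. For the blood contrast, the deposited gene counts went into a quasi-likelihood F test (R 4.3.3, edgeR 4.0.16) with TMM scaling, filterByExpr and Benjamini-Hochberg adjustment, fitted to the 16 nanopore libraries of the same kit, blood and 96 h lymph gland, in 6 groups, 10 residual degrees of freedom and a common dispersion of 0.0508; DESeq2 1.42.0 was an alternative. Both procedures were tested on simulated data. Length centring subtracts from each library its running median deviation over 101 genes of neighbouring length, and was added after the length trend was seen.

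Members and gene lists (40) were chosen with earlier results of these data known. Named genes are the 12 farthest outside the range each way (plus 4 numbered or non-coding genes), up to 4 genes a list and 14 hemocyte markers. The genes at the edge of the rule, Drs, AttA, AttB, AttD, DptB, Lsp1alpha, spok, Akh, sro, Hand, mthl6, Crk, lncRNA:CR40469 and the 6 ribosomal protein genes within range were named after their values were seen. No nucleotide or protein sequence is shown.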

Additional observations from a re-analysis of the deposited data

Results flagged for a closer look

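Of the genes outside the 96 h range in lymph gland, 4 passed the test in normal blood in the opposite direction. The difference between the tissues was not itself tested, since the gland had 1 library at 120 h. In the gland Lsp1gamma, mthl6 and lncRNA:CR40469 kept their call under all 5 scalings. Lsp1gamma was lower in the gland (181, 178 and 96.1 CPM at 96 h, 22.2 at 120 h) and rose in blood by 2.70 on the log2 scale (adjusted p by edgeR = 0.00683). The receptor gene mthl6 was lower in the gland (397, 403 and 292 CPM, then 234) and rose in blood by 1.88 (adjusted p by edgeR = 0.00114). The adaptor gene Crk was lower in the gland (138, 126 and 147 CPM, then 109, a log2 ratio of -0.32) but within its range with TMM (0.05), the scaling used for blood, and rose in blood by 1.10 (adjusted p by edgeR = 0.0370). The non-coding gene lncRNA:CR40469 was higher in the gland (391, 335 and 640 CPM, then 931), while in blood its log2 fold change was -5.25 (adjusted p by edgeR = 7.94e-06), from 1102 ± 200.1 to 28.5 ± 2.03 TMM-scaled CPM (SD, n = 2 each).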

How the results depend on the processing

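Counts of genes outside the 96 h range moved most with the scaling and the minimum. The 258 higher genes became 683 with TMM, 673 with median of ratios, 547 without mitochondrial and ribosomal protein genes in the total, and 1714 with no minimum. The 473 lower genes became 159, 164, 220 and 3739 in the same order, 924 at 50 CPM and 238 at 200 CPM. The 11 genes 2-fold above became 30, 30, 23 and 43, and 20 at 50 CPM. The 29 genes 2-fold below became 14, 14, 16 and 193, 69 at 50 CPM, 13 at 200 CPM and 17 after length centring. Leaving out 1 library at 96 h gave 268 to 343 higher and 469 to 645 lower genes, 12 to 33 and 29 to 83 of them by 2-fold. The 29 genes with a shifted transcript became 18 at 200 reads, and 33 to 50 without 1 library.

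List medians that changed sign with TMM were those of oxidative phosphorylation (0.20), proteasome (0.19), cell cycle (0.33), histones (0.26), lysosomal (0.24), redox (0.29) and adhesion (0.25) genes. With length centring the cell cycle (0.12), histone (0.025), lysosomal (0.020), redox (0.048) and adhesion (0.19) medians did so, and without replicate 3 those of cell cycle (0.093, the range without 1 library being -0.092 to 0.093) and metal handling genes (-0.054, range -0.054 to 0.24). Called genes among those named that changed sign, with TMM and median of ratios, were Gapdh2 (0.29, 0.28), Prosbeta1 (0.036, 0.028), Rpn7 (0.069, 0.061), Rpn11 (0.18, 0.18), RnrS (0.13, 0.12), PCNA (0.22, 0.21), His2Av (0.16, 0.15), CtsL1 (0.12, 0.12), Prx2 (0.016, 0.0080) and Tm1 (0.023, 0.015). Without mitochondrial and ribosomal protein genes Gapdh2 (0.19), Rpn11 (0.087), RnrS (0.031), PCNA (0.12), His2Av (0.062) and CtsL1 (0.028) did so, and after length centring Gapdh2 (0.035), Rpn7 (0.0055), His3.3B (0.014), CtsL1 (0.017) and Tm1 (0.11).  The markers srp (0.084, 0.077), Antp (0.047, 0.041) and lz (0.021, 0.016), which have no call, also changed sign with TMM and median of ratios. The cause was not tested.

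In blood, the 156 genes that rose became 378 with no filter on low counts, 366 in a fit of the 4 libraries alone and 65 to 78 without 1 library. The 143 that fell became 282, 345 and 51 to 66. The 32 and 48 genes shared with the gland became 64 and 109 in the fit of 4 libraries, and 16 to 19 and 16 to 20 without 1 library. With the replicate block 257 genes rose and 196 fell, and 42 and 65 were shared with the gland. The same replicate numbers did not deviate together (correlation -0.0141), so they were not taken as pairs. No paired analysis was possible because the 120 h lymph gland has 1 library, whose number no 96 h library carries.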
